A study of Macaca mulatta with 24 samples.

Results

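FERD3L, P3H2, COL9A2 and SDC3 are 4 genes known mainly from solid tissue, and they were examined here in the whole blood of rhesus macaques given a single total body dose of 4 Gy. They were chosen by their large differences between irradiated and pre-irradiation arrays, so their levels by day are given as a description with no test. They are 4 of 15049 gene symbols on the array and are read by 7 probes, of which 5 were well above background on enough arrays to be tested. FERD3L has 1 probe and each of the others has 2, here called probe 1 (the brighter) and probe 2.

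The study followed Chinese-origin Macaca mulatta aged 5 to 10 years through the first week after irradiation, with each animal as its own pre-irradiation control. The main fits here did not use this pairing, and a fit that blocks on the animal is given as an alternative. There were 7 pre-irradiation arrays (day 0 and 0 Gy in the labels), 4 arrays at day 3, 6 at day 5 and 7 at day 7, each from 1 of 7 animals (4 male, 3 female), and no arrays of unirradiated animals were among those of days 3, 5 and 7. Day 3 held 3 male and 1 female array and day 5 held 4 male and 2 female arrays. The labels name X-rays and day 0 for the pre-irradiation blood, and the study's methods a cobalt gamma source and blood drawn 3 days earlier. RNA came from blood drawn into PAXgene tubes, and globin transcripts were depleted with a kit made for human RNA. Each sample was labelled with Cy3 on a one-colour Agilent rhesus array, and levels are normalized log2 signals of a probe, which are comparable between arrays but not between probes. Arrays had 48.3 to 61.2% of probes well above background. A probe that is not well above background gives only an upper bound on its level.

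FERD3L encodes a basic helix-loop-helix transcription factor of the Twist family, known from the floor plate of the developing nervous system. P3H2 (also LEPREL1) encodes a prolyl 3-hydroxylase of the endoplasmic reticulum that modifies collagen chains, above all those of basement membranes. COL9A2 encodes a chain of type IX collagen, a cartilage collagen that decorates type II fibrils, and SDC3 encodes a syndecan, a membrane proteoglycan with heparan sulfate chains that is prominent in neural tissue and is also made by macrophages.

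The FERD3L signal was lower on all irradiated arrays than on any pre-irradiation array. Its probe (A_01_P015051) lies at chr3:107003620-107003679 on the plus strand of rheMac2, the build that the file headers name, and no genome or transcript of that build was used here to place it in an exon or UTR. The first 30 of its 60 bases are shown because they hold the longest stretch shared with a probe of another gene, in capitals:
FERD3L probe: tGCCCTTCCTGGTCTggtagtgctggggtg
The 14 capital bases are bases 2 to 15 of the probe and equal bases 30 to 43 of a probe for HBA1, an alpha globin chain. A shared run of at least 14 bases with a probe of another name occurred in 57.3% of the 43603 probes, so a match of this length is common on the array.

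Before irradiation the FERD3L signal was 18.33, 15.68, 15.19, 14.85, 17.49, 15.14 and 15.39 in replicates 1 to 7, with a lowest value of 14.85, a median of 15.39 and a highest of 18.33. At day 3 it was 10.36, 11.05, 10.61 and 9.23 in replicates 1, 2, 4 and 7. At day 5 it ran from 7.60 to 8.05 with a median of 7.75, the narrowest spread of any day. No irradiated array reached the pre-irradiation range.

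At day 7 the FERD3L signal was 6.83, 9.59, 7.82, 14.18, 13.06, 7.68 and 5.84 in replicates 1 to 7. Replicates 4 and 5 were within 2 log2 units of the lowest pre-irradiation array, and the other 5 ran from 5.84 to 9.59, below 3 of the 4 day 3 arrays. The group mean was 16.01 ± 1.34 (SD, n = 7) before irradiation, and 10.31 ± 0.77 (SD, n = 4), 7.77 ± 0.16 (SD, n = 6) and 9.28 ± 3.19 (SD, n = 7) on days 3, 5 and 7.

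These means put FERD3L 51.8-fold, 302.2-fold and 106-fold lower on days 3, 5 and 7 than before irradiation, with log2 differences of −5.70 ± 0.64, −8.24 ± 0.51 and −6.72 ± 1.31 (SE). Among the probes tested this difference had rank 1 among the decreases at day 3, rank 3 at day 5 and rank 2 at day 7. Over all named genes tested, every day 3 array lay below every pre-irradiation array in 12.1%, every day 5 array in 8.31% and every day 7 array in 6%. In the same animal the difference ran from −7.97 to −4.24 (day 3), from −10.66 to −7.09 (day 5) and from −11.50 to −0.67 (day 7, replicate 4 being nearest to 0).

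The probe was well above background on all 24 arrays and saturated on none. On 8 arrays, all 7 before irradiation and 1 at day 7, its value came from a low-gain scan that the scanner software scaled up. Days 3 and 5 were scanned in a second session with only 1 pre-irradiation array (replicate 5), which is the second brightest of the 7 for FERD3L. Within that session the difference was −7.17 at day 3, −9.72 at day 5 and −4.43 for its single day 7 array, and within the first session, which held 6 arrays of each group, it was −7.11 at day 7.

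**Figure D1:**
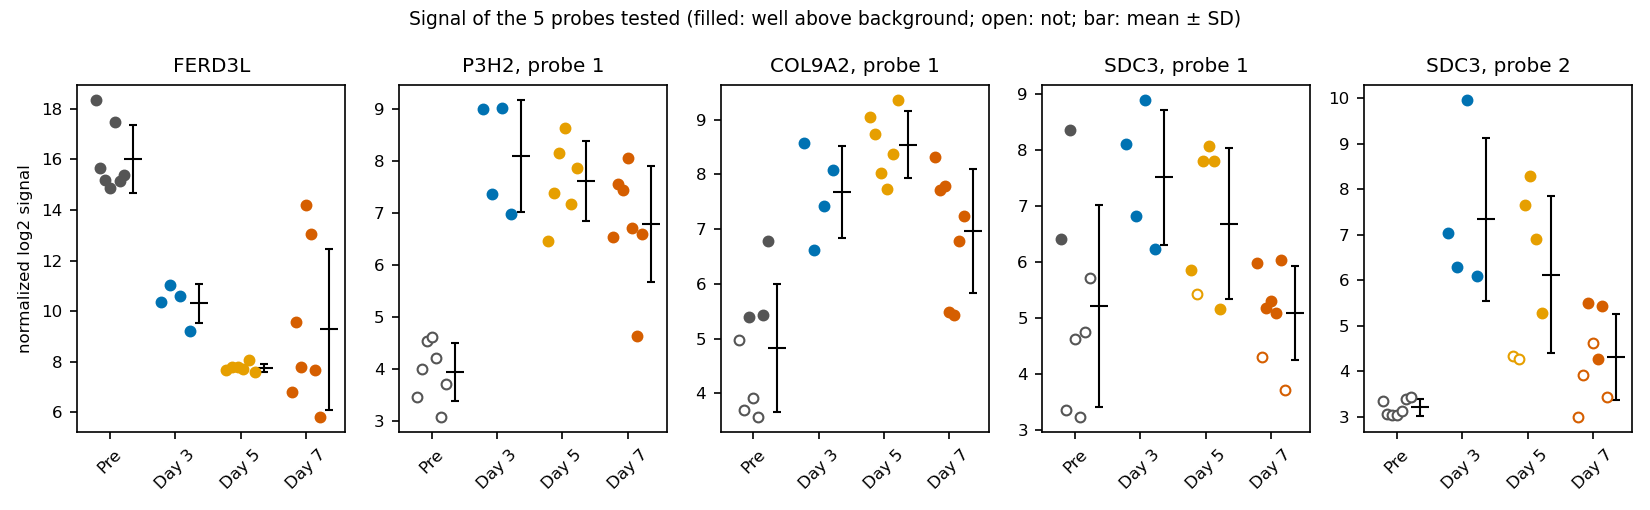
Normalized log2 signal (vertical axis) of the 5 probes tested in each array before irradiation (7 arrays), at day 3 (4), day 5 (6) and day 7 (7). Filled points are well above background, open points are not, and bars give the mean ± SD; FERD3L lay lower on all irradiated arrays, P3H2 was above background only after irradiation, and SDC3 probe 2 was highest at day 3.

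The mean level of erythroid genes was high and low on mostly the same arrays as FERD3L. The mean log2 signal of 31 tested erythroid marker genes ran from 12.61 to 13.67 before irradiation. It ran from 10.24 to 11.29 (day 3), from 8.62 to 9.25 (day 5) and from 8.01 to 11.85 (day 7). The day 7 arrays with the highest erythroid means were replicates 4 (11.85) and 5 (10.95), which were also those with the highest FERD3L signal. Replicate 7 was lowest in both at day 7 (8.01 and 5.84). At day 5 the order of arrays differed, and replicate 7 had the lowest FERD3L signal (7.60) with an erythroid mean of 9.21. The summed signal of the list, on the log2 scale, ran from 20.93 to 22.12 before irradiation, and spanned 18.81 to 20.20 (day 3), 16.97 to 17.60 (day 5) and 15.51 to 20.44 (day 7). In whole blood, fewer cells of a type and less RNA per cell cannot be told apart.

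Of the 31 erythroid genes, 20, 26 and 24 were called lower on days 3, 5 and 7, and 0 were called higher on any of the 3 days (limma, adjusted p under 0.005), where 7.58%, 9.12% and 7.18% of all named genes were called lower. HBA1, HBB and HBA2, the adult globin chains, had log2 differences at day 5 of −3.50, −4.08 and −4.46 as measured. Their probes were saturated on 1, 5 and 1 of the 24 arrays, where the signal is only a lower bound on the level. Some of the list had differences in the other direction that were not called, such as SLC25A37, a mitochondrial iron importer (0.75, 1.15 and 0.88), and RHAG, a red cell membrane protein (2.17 at day 3). All 32 erythroid markers on the array were well above background on at least 1 array. The part of erythroid RNA in the FERD3L signal was not tested.

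Across the 24 arrays FERD3L had a Pearson r of 0.98 with the erythroid mean, and of 0.95 after the mean of each group was subtracted. The 5 named genes most like it were SLC25A39, a mitochondrial carrier (r = 0.985), FSD1 (0.984), HYAL3, a hyaluronidase family member (0.979), FKBP8, a mitochondrial immunophilin (0.979), and STRADB, a pseudokinase that is on the erythroid list (0.978). Within groups these r were 0.938, 0.950, 0.915, 0.921 and 0.913. They describe likeness over 24 arrays that share hybridisation and normalization, and carry no test. The within-group r draw mostly on the groups with a wide spread. FERD3L spanned 8.34 log2 units at day 7 and 3.48 before irradiation, but 0.46 at day 5.

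**Figure D2:**
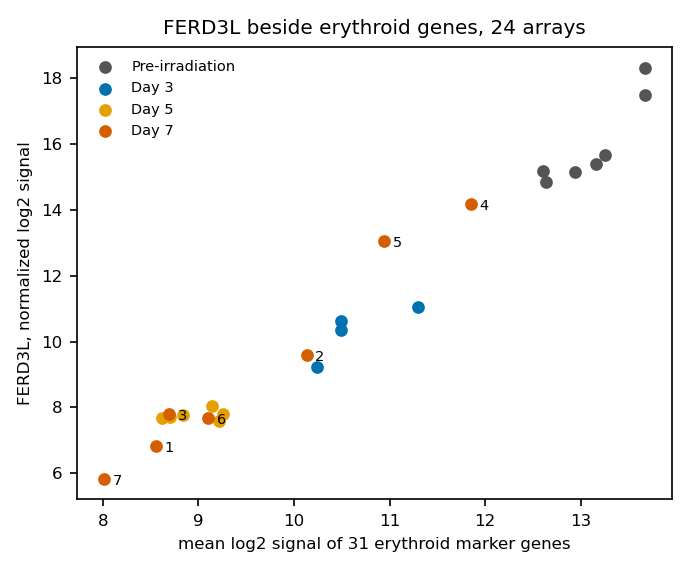
FERD3L signal (vertical axis, normalized log2) against the mean log2 signal of 31 erythroid marker genes (horizontal axis) in 24 arrays, coloured by group, with day 7 arrays numbered by replicate. Arrays low in erythroid signal are low in FERD3L, and day 7 replicates 4 and 5 lie apart from the other 5 day 7 arrays in both.

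Neural genes, the setting in which FERD3L is best known, gave few measurable values. Of 15 neural markers on the array, 5 (RBFOX3, SNAP25, NEFM, GAD1 and NEUROD1) were never well above background, and of the 6 tested 0 were called on any of the 3 days (limma, adjusted p under 0.005, with 4, 2 and 2 at an unadjusted p under 0.05), where 13.5%, 15.4% and 9.85% of named genes were called in either direction. The summed log2 signal of these 6 ran from 12.08 to 12.87 before irradiation, reached 13.32 at day 3 and 13.21 at day 5, and was at most 12.51 at day 7. That sum is mostly MBP, with group means of 12.20 before irradiation and 12.94 at day 3. The next brightest gene, TUBB3, had 7.73 and 8.50. TWIST1, the relative whose probe is the nearest of a named gene on the same chromosome (30.5 kb away), had log2 differences of 0.14, 0.72 and −0.13 at days 3, 5 and 7 and was not called (adjusted p = 0.878, 0.498 and 0.874, limma). It was well above background on 7 of 24 arrays.

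Most other basic helix-loop-helix factors bind E-box DNA as dimers, as FERD3L does, while the related ID proteins lack the basic region and form dimers that do not bind DNA. Of 44 genes of both kinds on the array 13 were never well above background and 17 were tested. At day 3, 1 was called higher and 3 lower, against 5.96% (higher) and 7.58% (lower) over named genes. At day 5, 1 was called higher and 4 lower (6.24% and 9.12% of named genes), and at day 7, 1 higher and 3 lower (2.67% and 7.18%). The median log2 difference of the list was 0.11, −0.32 and −0.42 on these days, beside −0.0031, −0.0047 and −0.012 over all named genes.

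TCF4, an E protein that pairs with tissue factors and is abundant in B cells and dendritic cells, fell by 1.98, 2.18 and 1.94 on the log2 scale at days 3, 5 and 7 (adjusted p = 2.06e-05, 3.04e-06 and 5.1e-06, limma). TCF3, the E protein of the lymphoid lineage, fell by 1.17, 1.14 and 1.27. TAL1, an erythroid and stem cell factor, fell by 2.16 at day 5 and 2.04 at day 7 (adjusted p = 1.91e-06 and 2.17e-05) and had a difference of −1.12 at day 3 that was not called (adjusted p = 0.00664). TCF12, another E protein, fell by 1.31 at day 3 and 1.04 at day 5. ATOH8 was the gene called higher at day 3, by 0.87. TWIST2, well above background on 2 of 7 pre-irradiation arrays, rose by 1.81 at day 5 and 1.67 at day 7 and had a difference of 1.90 at day 3 that was not called (adjusted p = 0.0189). Of 16 B cell markers tested, 15 were called lower on each of the 3 days, where 7.58%, 9.12% and 7.18% of named genes were, and PAX5 was never well above background. Their summed log2 signal ran from 15.52 to 15.89 before irradiation and from 11.86 to 13.25 afterwards, and their part in the TCF4 and TCF3 values was not tested. With the animal as a block, TCF3, TCF12 and ATOH8 were not called at day 3, nor TWIST2 at day 5. No probe was found for LYL1.

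P3H2 was not well above background on any of the 7 pre-irradiation arrays and was well above it on all 17 irradiated arrays in its probe 1. Probe 1 (A_01_P018078) lies at chr2:182275652-182275711 and probe 2 (A_01_P1689811) at chr2:182276714-182276773, both on the minus strand, so that probe 1 is 1062 bases downstream of probe 2. The bases shown are the first 30 of probe 1, whose place in the transcript was not given, and all 60 of probe 2, with the closing stop codon in capitals:
P3H2 probe 1: atggccaggttgcctacgagtggggtccac
P3H2 probe 2: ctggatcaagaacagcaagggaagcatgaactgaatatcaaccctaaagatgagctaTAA
No probe of another gene shared more than 14 bases with either.

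P3H2 probe 1 gave 3.46, 4.00, 4.54, 4.61, 4.22, 3.09 and 3.70 in pre-irradiation replicates 1 to 7, all below the lowest signal called well above background on those arrays (5.17 to 5.61). At day 3 it gave 9.01, 7.37, 9.02 and 6.98 in replicates 1, 2, 4 and 7. At day 5 it ran from 6.46 to 8.64 with a median of 7.63. At day 7 it ran from 4.63 to 8.07 with a median of 6.72. As measured, every irradiated array lay above every pre-irradiation array, but day 7 replicate 6 (4.63) was barely above the highest of them (4.61). It was also below the lowest signal called well above background on the pre-irradiation arrays. For that array the separation is therefore not established.

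The group mean of P3H2 probe 1 was 8.10 ± 1.07 (SD, n = 4), 7.61 ± 0.77 (SD, n = 6) and 6.79 ± 1.11 (SD, n = 7) on days 3, 5 and 7, against 3.94 ± 0.56 (SD, n = 7) before irradiation. Because the pre-irradiation signal is only a bound, the levels were at least 7.00-fold (day 3), at least 5.02-fold (day 5) and at least 2.84-fold (day 7) higher. For each dim array the bound takes the lowest signal of any probe well above background there, and divides the irradiated mean by the average of these. The bounds hold for the main processing only. With the normexp background, which compresses dim signals, the differences were smaller than these bounds, as given in the last section. Over all named genes, every array of the day lay above every pre-irradiation array in 9.1%, 5.05% and 2.08% on days 3, 5 and 7.

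In the same animal the log2 difference of P3H2 probe 1 was positive in 4 of 4, 6 of 6 and 7 of 7 animals on days 3, 5 and 7, from 1.54 (day 7) to 5.55 (day 3), as measured against pre-irradiation signals at background. Days 3 and 5 overlapped: the difference between them was −0.48 ± 0.62 (SE). Day 7 was lower than day 5 by less than 1 log2 unit (−0.82 ± 0.53), and their arrays overlapped too. All day 5 arrays but only 1 day 7 array were scanned in the second session, so day and session are largely confounded there. Within the first scan session the day 7 difference was 2.91, and within the second session the differences on days 3, 5 and 7 were 3.88, 3.40 and 2.50, each against its 1 pre-irradiation array.

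Probe 2 of P3H2 was dim. It was well above background on only 2 of 24 arrays, day 3 replicate 4 (5.38) and day 5 replicate 4 (4.93), which are the arrays on which probe 1 was highest for its day. On the 7 pre-irradiation arrays it stood at the surrogate value that the scanner software gives to signals near background. Over 24 arrays the 2 probes had r = 0.59, and 0.73 within groups, with both well above background on 2 arrays.

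**Figure D3:**
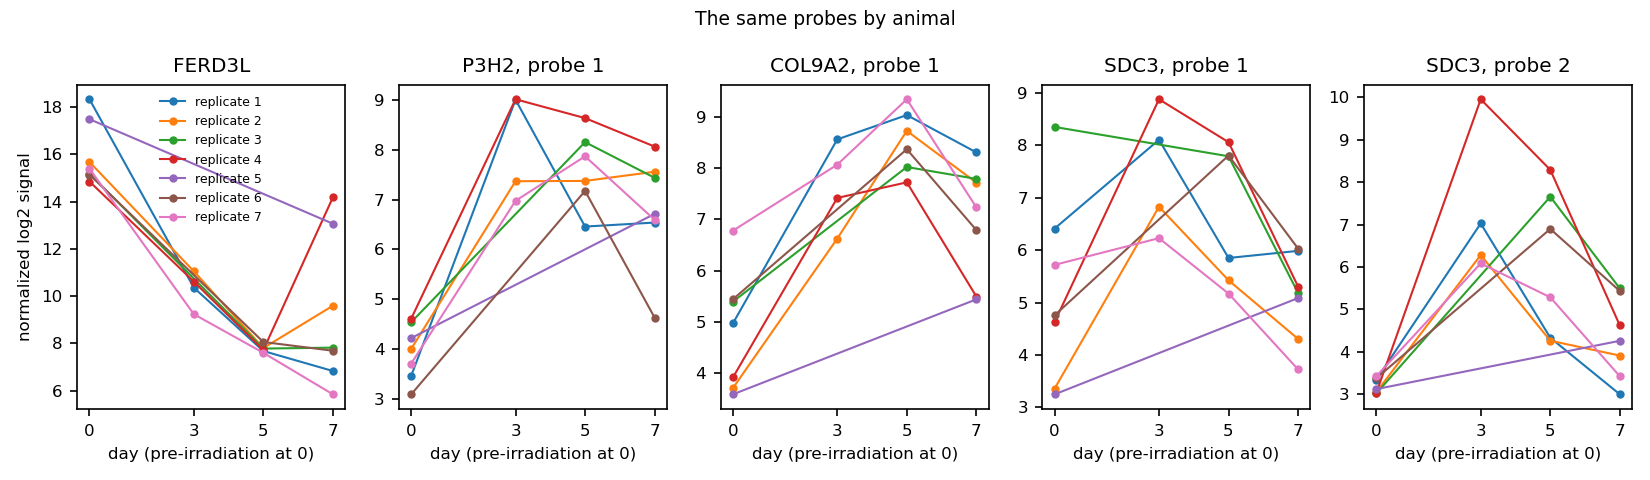
Normalized log2 signal (vertical axis) of the same 5 probes by day (horizontal axis, pre-irradiation at 0), with 1 line for each of 7 animals. FERD3L is lower after irradiation in every animal and at day 7 is highest in replicates 4 and 5, while P3H2 probe 1 and COL9A2 probe 1 are higher than before irradiation in every animal on each day.

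The named genes most like P3H2 probe 1 over the 24 arrays were TYMS, the thymidylate synthase (r = 0.867), IHO1 (0.864), CCDC36 (0.863), MVP, the major vault protein (0.854), and RHBDF2, an inactive rhomboid that escorts ADAM17 (0.844). IHO1 and CCDC36 are 2 symbols of 1 gene in the files. Within groups the r were lower, from 0.310 (TYMS) to 0.554 (CCDC36). For P3H2 the likeness over all arrays was thus mostly one of group means.

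Enzymes and chaperones that modify collagen were taken as the relatives of P3H2 by function. The list is wider than collagen modification in the endoplasmic reticulum, and LOXL3, PCOLCE2 and P4HTM, described below, are among its called genes. Of 23 on the array 19 were tested, with 3 called higher and 2 lower at day 3, 2 higher and 1 lower at day 5, and 0 higher and 1 lower at day 7, where 13.5%, 15.4% and 9.85% of named genes were called in either direction. Their median log2 difference was 0.25, 0.30 and 0.32. P3H1 (also LEPRE1), the prolyl 3-hydroxylase of fibrillar collagens, rose by 0.95 at day 3 and 0.79 at day 5 (adjusted p = 0.00251 and 0.00363, limma) and had a difference of 0.57 at day 7 that was not called (adjusted p = 0.0392). P3H3, the other family member measured, had differences of −0.25, −0.02 and 0.08 and was not called. No probe was found for P3H4 or CRTAP.

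PLOD1, a lysyl hydroxylase, rose by 1.14 at day 3 (adjusted p = 0.00390, limma) and had differences of 0.97 and 1.08 on the later days that were not called. LOXL3, a lysyl oxidase that cross-links matrix, rose by 2.23 at day 3 and 1.06 at day 5 (adjusted p = 0.000123 and 0.00174). P4HTM, a transmembrane prolyl hydroxylase that acts on HIF, fell by 3.33, 3.81 and 3.57 (adjusted p = 0.00141, 2.8e-05 and 5.6e-05). PCOLCE2, an enhancer of procollagen processing, was at least 2.34-fold lower at day 3, where none of the arrays were well above background (adjusted p = 0.00253). PPIB, P4HA1 and SERPINH1, the collagen chaperones and the prolyl 4-hydroxylase subunit, had differences between −0.31 and 0.93 and were not called. With the animal as a block, P3H1, PLOD1 and PCOLCE2 were not called at day 3.

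**Figure D4:**
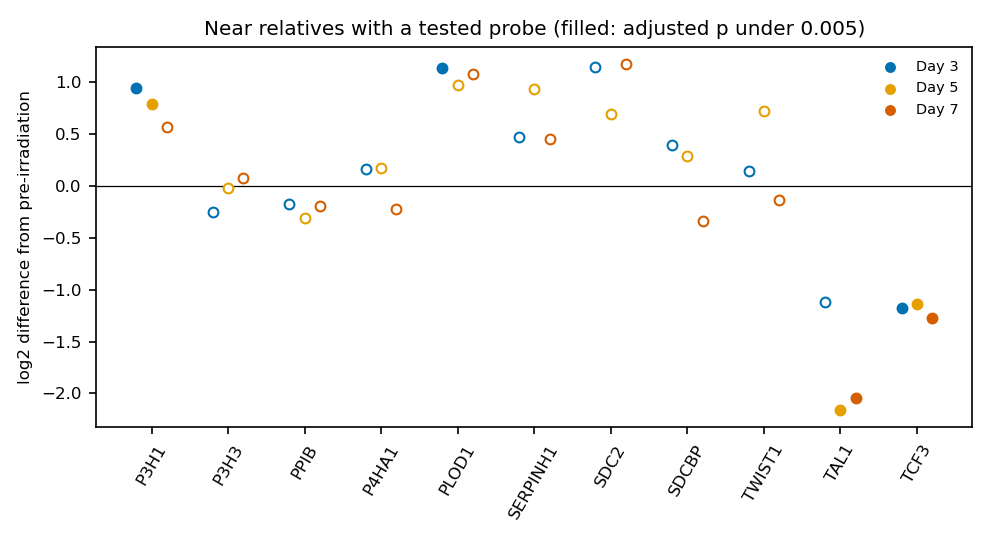
Log2 difference from pre-irradiation (vertical axis) at days 3, 5 and 7 for the 11 nearest relatives with a tested probe. Filled points passed an adjusted p under 0.005 (limma) and open points did not; P3H1 and PLOD1 rose at day 3 and TCF3 fell on each day, of which the 3 day 3 calls were not made with the animal as a block.

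COL9A2 was low before irradiation and was highest at day 5 in its probe 1 (A_01_P1765491), which spans chr1:43201376-43202159 on the minus strand, an interval of 784 bases for a 60-base probe. Its probe 2 (A_01_P1765496) spans chr1:43215021-43216523, 14004 bases upstream, over an interval of 1503 bases. Both intervals are longer than the probe itself. Probe 1 is shown whole because it carries the repeat of a collagen triple helix, with the GG that opens each glycine codon in capitals:
COL9A2 probe 1: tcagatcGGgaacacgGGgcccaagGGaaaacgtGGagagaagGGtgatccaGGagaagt
COL9A2 probe 2: tgttcTTCTCCAGGTGCTAgtgctcgctct
GG recurs every 9 bases at 6 of 6 positions in probe 1. Probe 2 is given by its first 30 bases, with the 14 that it shares with a probe for TCP11L2 in capitals.

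COL9A2 probe 1 gave 4.97, 3.70, 5.39, 3.91, 3.58, 5.44 and 6.78 in pre-irradiation replicates 1 to 7, and only replicates 3, 6 and 7 were well above background. At day 3 it gave 8.57, 6.63, 7.42 and 8.07 in replicates 1, 2, 4 and 7. At day 5 it gave 9.04, 8.73, 8.03, 7.73, 8.37 and 9.35 in replicates 1, 2, 3, 4, 6 and 7. Every day 5 array lay above every pre-irradiation array, as in 5.05% of named genes. At day 3, 3 of 4 arrays did, since replicate 2 at day 3 was just below the highest pre-irradiation array.

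At day 7 COL9A2 probe 1 ran from 5.44 to 8.31 with a median of 7.24, and 5 of 7 arrays lay above the pre-irradiation range. Replicates 4 and 5 were the lowest (5.49 and 5.44), the same arrays that were highest in FERD3L. All 17 irradiated arrays were well above background. The group means were 4.82 ± 1.17 (SD, n = 7) before irradiation, and 7.67 ± 0.84 (SD, n = 4), 8.54 ± 0.62 (SD, n = 6) and 6.97 ± 1.13 (SD, n = 7) on days 3, 5 and 7.

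The measured means of COL9A2 differed by 7.20-fold, 13.2-fold and 4.43-fold on days 3, 5 and 7, with log2 differences of 2.85 ± 0.61, 3.72 ± 0.51 and 2.15 ± 0.61 (SE). These are values as measured, since 4 of 7 pre-irradiation arrays were not well above background and give only upper bounds. With the normexp background, which compresses dim signals, the differences were smaller on each of the 3 days, as given in the last section. In the same animal the signal was higher than before irradiation in 4 of 4, 6 of 6 and 7 of 7 animals. Day 5 was above day 3 in 4 of 4 animals (0.87 ± 0.49 between group means) and day 7 was below day 5 in 6 of 6 (−1.57 ± 0.50). All day 5 arrays were scanned in the second session and the day 7 arrays of these 6 animals in the first. Day and scan session therefore cannot be told apart in that fall. Within the second scan session the differences were 4.09, 4.97 and 1.86 on days 3, 5 and 7 against its 1 pre-irradiation array, which was the dimmest of the 7, and within the first session the day 7 difference was 2.19.

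Probe 2 of COL9A2 was well above background on 1 of 24 arrays, day 5 replicate 7 (4.79), the array on which probe 1 was highest (9.35). It stood at a surrogate value on 15 arrays, all 7 before irradiation among them. The 2 probes had r = 0.50 over 24 arrays and 0.60 within groups.

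The named genes most like COL9A2 probe 1 were HORMAD1, a meiotic chromosome protein (r = 0.905), ADGRE2 (0.885) and ADGRE5 (0.884), adhesion receptors of myeloid and other leukocytes, CCDC189 (0.875), and DMXL2 (0.865). Within groups the r were 0.727, 0.631, 0.665, 0.678 and 0.542. COL9A2 had r = −0.85 with FERD3L over 24 arrays and −0.57 within groups.

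The other collagen chains and cartilage proteins were mostly too dim to measure. Of 32 on the array 11 were tested, and 7 (COL19A1, COL4A3, COL10A1, COL24A1, ACAN, HAPLN1 and FMOD) were never well above background. At day 3 0 of 11 were called (limma, with 3 at an unadjusted p under 0.05), at day 5 1 was called higher, and at day 7 1 higher and 1 lower, where 13.5%, 15.4% and 9.85% of named genes were called in either direction. The median log2 difference was 0.44, 0.49 and 0.24. COL9A1, the partner chain of COL9A2, had 2 probes and neither was tested, and no probe was found for COL9A3.

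COL1A2, a chain of type I collagen, rose by 2.35 at day 5 and 2.48 at day 7 (adjusted p = 0.00194 and 0.00492, limma). COL6A2, a type VI chain, fell by 1.98 at day 7 (adjusted p = 0.000980). With quantile normalization neither was called at day 7 (adjusted p = 0.00570 and 0.0114, limma). Of 18 markers of connective tissue, cartilage and skin on the array 10 were tested and 3 (ACAN, HAPLN1 and KRT1) were never well above background. Their summed log2 signal ran from 10.45 to 11.45 before irradiation and from 10.45 to 12.40 over the irradiated arrays. In that list DSP, a desmosome protein, was called lower on each of the 3 days (adjusted p = 0.000441, 5.06e-05 and 0.00304), by at least 2.61-fold at day 3, where 0 of 4 arrays were well above background, and with 1 of 6 and 1 of 7 arrays well above it at days 5 and 7. COL1A2 rose at days 5 and 7 as above, and no other gene was called (limma, adjusted p under 0.005). Of the 10 tested, 1, 2 and 2 were thus called, which is near the 13.5%, 15.4% and 9.85% of named genes called in either direction.

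SDC3 was highest at day 3, and its 2 probes did not give the same account of it. Probe 1 (A_01_P1764946) lies at chr1:33634303-33634362 and probe 2 (A_01_P1764951) at chr1:33637885-33637944, 3582 bases upstream, both on the minus strand. The first 30 bases of probe 1, whose place in the transcript was not given, and the whole of probe 2 are shown because the probes differed in how pre-irradiation arrays compared with later ones:
SDC3 probe 1: atggccaaaaccttaaataaggaaaaagac
SDC3 probe 2: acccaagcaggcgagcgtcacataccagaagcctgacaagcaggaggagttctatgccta
No letters are in capitals, since no stretch was singled out. The longest run shared with a probe of another gene was 15 bases for probe 1 (HOXB8) and 13 bases for probe 2 (FER1L4).

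Probe 2 of SDC3 gave 3.35, 3.06, 3.03, 3.04, 3.13, 3.38 and 3.43 in pre-irradiation replicates 1 to 7, none of them well above background. At day 3 it gave 7.03, 6.28, 9.95 and 6.09 in replicates 1, 2, 4 and 7, all well above background. At day 5 it gave 4.33, 4.26, 7.65, 8.29, 6.90 and 5.29 in replicates 1, 2, 3, 4, 6 and 7, and replicates 1 and 2 were not well above background. Replicate 4 was the highest array on both days.

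At day 7 SDC3 probe 2 ran from 3.00 to 5.50 with a median of 4.26, and 3 of 7 arrays (replicates 3, 5 and 6) were well above background. All day 3 arrays lay above the pre-irradiation range, as in 9.1% of named genes. The group means were 3.20 ± 0.18 (SD, n = 7) before irradiation, and 7.34 ± 1.79 (SD, n = 4), 6.12 ± 1.73 (SD, n = 6) and 4.31 ± 0.95 (SD, n = 7) on days 3, 5 and 7. The level was at least 4.14-fold higher at day 3 than before irradiation. This bound uses the day 3 mean, which replicate 4 (9.95) raised above the day 3 median of 6.65. No fold is given for days 5 and 7, where some arrays were not well above background.

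Probe 1 of SDC3 gave 6.41, 3.36, 8.35, 4.63, 3.25, 4.76 and 5.72 in the same pre-irradiation replicates, with replicates 1 and 3 well above background. At day 3 it gave 8.11, 6.83, 8.88 and 6.23 in replicates 1, 2, 4 and 7. At day 5 it ran from 5.17 to 8.06 with a median of 6.82, and at day 7 from 3.72 to 6.03 with a median of 5.18. The groups overlapped on every day, and pre-irradiation replicate 3 was brighter than all but 1 irradiated array.

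As measured, the log2 difference of SDC3 probe 1 from pre-irradiation was 2.30 ± 0.91, 1.47 ± 0.87 and −0.12 ± 0.75 (SE) on days 3, 5 and 7, where 5 of 7 pre-irradiation arrays were not well above background and give only upper bounds. In the same animal it was higher than before irradiation in 4 of 4, 3 of 6 and 4 of 7 animals on these days. Day 7 was below day 3 in 4 of 4 animals in both probes. Between group means the difference was −2.42 ± 0.68 in probe 1 and −3.03 ± 0.96 in probe 2. In probe 2, 3 of 7 day 7 arrays were well above background. For these 4 animals the day 3 arrays were scanned in the second session and the day 7 arrays in the first. Day and scan session cannot be told apart in this comparison.

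Pre-irradiation replicate 3 was the highest of its group in probe 1 and stood at a surrogate value in probe 2. At day 5 replicates 3, 4 and 6 were the highest in both. Over 24 arrays their r was 0.72, and 0.54 within groups, and both were well above background on 11 arrays. Within the second scan session, whose 1 pre-irradiation array was the dimmest in probe 1 (3.25), probe 1 differed by 4.26, 3.44 and 1.84 on days 3, 5 and 7, and within the first session by −0.45 at day 7, so its day 7 difference changed sign between sessions.

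**Figure D5:**
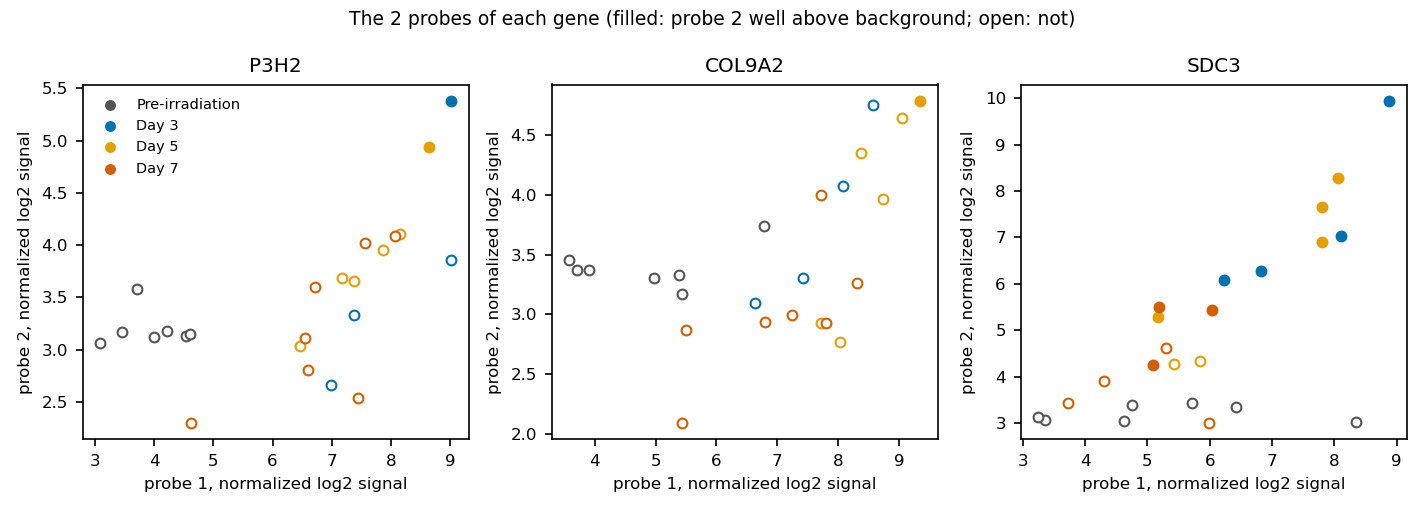
Probe 2 against probe 1 of P3H2, COL9A2 and SDC3 (both axes normalized log2 signal) in 24 arrays coloured by group, with filled points where probe 2 was well above background. Probe 2 of P3H2 and of COL9A2 was well above background on 2 and 1 arrays, and in SDC3 probe 1 varied among pre-irradiation arrays while probe 2 stayed between 3.03 and 3.43.

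The named genes most like SDC3 probe 1 were MAN2B2, a lysosomal mannosidase (r = 0.769), ATF3, a stress-induced factor (0.723), ZNF703 (0.713), FAM110A (0.712) and SAMD4A (0.690). Among those most like probe 2, a list added after the probes were seen to differ, were CLMN (0.936), ATF3 (0.887), WARS, a tryptophanyl tRNA synthetase induced by interferon (0.872), and ELF4 (0.863). ATF3 was on both lists.

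Some markers of tissue macrophages, cells known to make SDC3, were called higher. Of 17 tested, 8, 4 and 2 were called higher on days 3, 5 and 7, where 5.96%, 6.24% and 2.67% of named genes were, with 0 called lower on any of the 3 days, and AXL was the 1 marker of 19 never well above background. Their summed log2 signal ran from 13.76 to 14.22 before irradiation, and spanned 14.54 to 15.22 (day 3), 14.05 to 14.78 (day 5) and 13.71 to 14.20 (day 7). TIMD4, a receptor of resident macrophages, had a day 3 difference of −1.68 that was not called (adjusted p = 0.00746). SLC40A1, the iron exporter, rose by 1.16 at day 3 and 0.98 at day 5, and HMOX1 and CD68 had day 3 differences of 0.34 and 0.91 and were not called. Over 24 arrays the r of the list mean was 0.63 with SDC3 probe 1, 0.79 with SDC3 probe 2, 0.71 with P3H2 and 0.59 with COL9A2. Within groups these r were 0.50, 0.51, 0.09 and 0.06. P3H2 had r = −0.83 with the B cell mean (0.19 within groups) and 0.70 with the monocyte mean (−0.46), and COL9A2 had −0.83 with the erythroid mean (−0.52) and 0.75 with the monocyte mean (0.22).

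Monocyte markers gave 6, 5 and 2 of 15 called higher at days 3, 5 and 7, where 5.96%, 6.24% and 2.67% of named genes were. They had a mean log2 level of 10.64 to 11.36 before irradiation and of 11.30 to 12.73 afterwards, and a summed log2 signal of 17.82 to 18.69 before and 18.31 to 19.89 afterwards. Platelet markers gave 16, 3 and 0 of 18 called higher, beside the same shares, with a summed log2 signal of 15.69 to 17.16 before irradiation, and of 18.69 to 19.50 (day 3), 16.96 to 17.59 (day 5) and 15.53 to 17.14 (day 7). No marker of these 2 lists was called lower on any of the 3 days (limma, adjusted p under 0.005), and all of them were well above background on some array. The part of any of these cell types in the P3H2, COL9A2 and SDC3 signals was not tested.

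Syndecans, glypicans and the enzymes of heparan sulfate are the family and the synthetic pathway of SDC3. Of 36 on the array 24 were tested and 7 (SDC1, GPC5, AGRN, NDST3, NDST4, HS3ST2 and HS6ST2) were never well above background. At day 3 0 were called higher and 2 lower, at day 5 1 higher and 3 lower, and at day 7 0 higher and 3 lower, where 13.5%, 15.4% and 9.85% of named genes were called in either direction. The median log2 differences were 0.02, 0.09 and 0.10. SDC2, a syndecan of mesenchymal cells, was not well above background on any pre-irradiation array, had differences of 1.14, 0.70 and 1.17, and was not called. SDCBP (syntenin), which binds syndecan tails, had differences of 0.40, 0.29 and −0.34 and was not called. No probe was found for SDC4.

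HS3ST1, a heparan sulfate 3-O-sulfotransferase, fell by 3.11, 2.92 and 4.18 at days 3, 5 and 7 (adjusted p = 2.05e-05, 0.000156 and 3.32e-07, limma), and was well above background on 4 of 4, 5 of 6 and 3 of 7 arrays of these days. With the normexp background the differences of HS3ST1 were −1.37, −1.13 and −1.80 and were not called (adjusted p = 0.0344, 0.0547 and 0.00669, limma). GPC4, a glypican, was at least 4.46-fold lower at day 3, where none of the 4 arrays were well above background, and was called lower at days 5 and 7 (adjusted p = 0.000956 and 0.000362), where 1 array of each was. With normexp its log2 difference was −0.29, 0.05 and −0.80 on days 3, 5 and 7, turned at day 5, and was not called (adjusted p = 0.828, 0.935 and 0.430, limma). SULF1, an extracellular sulfatase, fell by 1.54 at day 7, and EXTL2, a glycosyltransferase, fell by 1.11 at day 5. XYLT1, which starts the chain, rose by 1.10 at day 5.

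Over the 4 lists of relatives, 11, 13 and 10 of 71 genes tested were called at days 3, 5 and 7, where 13.5%, 15.4% and 9.85% of all named genes were called in either direction. These counts are near the overall shares. With the normexp background the calls left were LOXL3 at day 3 and P4HTM and TCF4 at days 5 and 7. A fit that blocks on the animal called 5, 12 and 10. Under it P3H1, PLOD1, PCOLCE2, ATOH8, TCF3 and TCF12 were no longer called at day 3, GPC4, EXTL2 and TWIST2 at day 5, and SULF1 at day 7. With the scan session as a block, where days 3 and 5 lean on 1 pre-irradiation array, 0, 3 and 10 were called by limma, and 18, 15 and 30 had an unadjusted p under 0.05. Without replicate 1, 2, 4 or 7 the day 3 count was 4, 6, 3 or 4, without replicate 1, 2 or 7 the day 5 count was 8, 5 or 6, and without replicate 1 the day 7 count was 6.

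Sex was a contrast that the choice of the genes did not use. Before irradiation the female minus male difference of FERD3L was −0.0027 ± 0.92 (SE), with 16.01 ± 1.29 (SD, n = 3) in females and 16.01 ± 1.58 (SD, n = 4) in males. It was −0.48 ± 0.37 for P3H2 probe 1, 0.77 ± 0.75 for COL9A2 probe 1, −1.11 ± 1.15 for SDC3 probe 1 and 0.19 ± 0.18 for SDC3 probe 2. None of the 5 probes passed an adjusted p of 0.05 (adjusted p from 0.677 to 0.999, limma), where 0.0479% of 27129 probes did. P3H2 probe 1 and SDC3 probe 2 were not well above background on any pre-irradiation array, and SDC3 probe 1 on none of the 3 female ones, so for them this comparison says nothing about the sexes. COL9A2 probe 1 was well above background in 2 of 3 females and 1 of 4 males.

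The change at day 7 was compared between the sexes by an interaction term. FERD3L changed by −7.15 ± 2.58 (SD, n = 3) in females and −6.41 ± 4.47 (SD, n = 4) in males. COL9A2 probe 1 changed by 1.22 ± 0.71 in females and 2.84 ± 1.07 in males, a difference of −1.62 ± 1.12 (SE) with an adjusted p of 0.686 (limma). P3H2 probe 1 differed by −0.94 ± 0.73, SDC3 probe 1 by 0.87 ± 1.40 and SDC3 probe 2 by −0.08 ± 0.73, with adjusted p from 0.720 to 0.985, and P3H2 probe 1 and both SDC3 probes are measured here against pre-irradiation signals that were in part or wholly at background. Of all probes 0% passed an adjusted p of 0.05, and 2358 of 27129 had an unadjusted p under 0.05. With 3 females and 4 males, the standard errors allow differences of more than 1 log2 unit in FERD3L and COL9A2.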

How the data were processed

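The 24 one-colour arrays held blood RNA of 7 animals, lay on 6 slides and were scanned in 2 sessions. The authors' deposited scanner output gives each spot's processed signal, an intensity after background subtraction (Agilent Feature Extraction 10.7 in the submitters' notes, 12.0.2.2 in the file headers). The authors also deposited a log2 table normalized to the median array, used as an alternative. The study's methods name a human array, and the files a rhesus design.

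Processed signals were taken to log2, non-uniform and population outlier spots were left out, and spots were averaged per probe. Probes well above background on at least 4 arrays were tested (27133 of 43603), and arrays were aligned to the array of middle median signal by adding a constant (−0.87 to 2.03) that set the median difference over these probes to 0. Each day was compared with pre-irradiation in its own fit with limma 3.58.1 in R 4.3.3, two-sided. These main fits were unpaired, with no term for the animal. P-values were adjusted over all probes tested (Benjamini-Hochberg), with calls under 0.005, or 0.05 for sex. The procedure was tested on simulated data. A named gene is represented by its brightest tested probe.

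The members and lists were chosen with earlier results of these data known. Named genes are all probes of the members, their nearest relatives, up to 3 called genes per list and day, the 5 most alike genes, and the 3 brightest of a marker list; 1 of the genes most like SDC3 probe 2 is not reported here. Replicate numbers are animals: same-numbered arrays deviated from their group means with r from 0.129 to 0.458. Alternatives were other normalizations, normexp background, outlier spots kept, the authors' values, no filter, all groups in 1 fit, blocks, and leaving out each animal. The number of arrays limits the precision.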

Additional observations from a re-analysis of the deposited data

Results flagged for a closer look

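In probe 2 of P3H2, which was too dim to be tested and lay between 3.07 and 3.58 on the pre-irradiation arrays, day 3 replicate 4 (5.38) and day 5 replicate 4 (4.93) were well above background. In probe 2 of COL9A2, which lay between 3.17 and 3.74 before irradiation and was not tested either, day 5 replicate 7 (4.79) was well above background. These were singled out as signals in probes outside the comparisons. Of 20 groups of arrays of the 5 tested probes, 0 held an array far enough from the others to stand out, where chance gives about 1 in 20.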

How the results depend on the processing

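With normexp and its offset, which compresses dim signals, the log2 difference at days 3, 5 and 7 was 1.56, 1.45 and 0.66 for P3H2 and 1.14, 1.42 and 0.84 for COL9A2, that of FERD3L was −6.96 at day 5, and 1, 2 and 2 relatives were called. With the slide as a block, FERD3L differed by −7.56, COL9A2 by 4.17 and SDC3 by 4.31 at day 3, and 0 relatives were called (limma, with 14 at an unadjusted p under 0.05). At day 3 this block rests on slide 6 alone, with 2 day 3 arrays and 1 pre-irradiation array (replicate 5). That array was the dimmest before irradiation for COL9A2 and SDC3 probe 1 and the second brightest for FERD3L. The slide block could not be fitted for day 5, since no slide held arrays of both groups. With the scan session as a block, and within session 2 (chosen after seeing the data), FERD3L differed by −7.17 and −9.72, COL9A2 by 4.09 and 4.97 and SDC3 by 4.26 and 3.44 at days 3 and 5, and the block gave 0 and 3 relatives. The SDC3 values with the slide and session blocks are those of probe 1. Within session 2 SDC3 probe 2 differed by 4.21 and 3.00 at days 3 and 5. In the paired fit, with the replicate block, 5 relatives were called at day 3, and the member differences moved by less than the spread between arrays. The 75th percentile turned the sex difference of FERD3L before irradiation to 0.019.

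Leaving out 1 animal gave −6.00 to −5.32, −8.44 to −7.83 and −7.73 to −5.93 for FERD3L at days 3, 5 and 7. It gave 3 to 12, 5 to 10 and 6 to 12 relatives called. The sex difference of FERD3L ran from −0.74 to 0.77 before irradiation and from −2.44 to 1.17 in the day 7 change, and that of SDC3 in the day 7 change from −0.026 to 2.05. No sex difference passed its threshold under any alternative run. P3H2 and SDC3 probe 2 before irradiation are limited by signal over background.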
